A study of Oryza sativa with 2 samples.

Results

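The genes described here encode F-box proteins. They were taken from a list of sites bound by the rice transcription factor OsbHLH002, as every gene of the list whose description contains "F-box" or "OsFB". There were 211 such genes among 14709, or 1.43% of the list, on 209 distinct peaks and on all 12 chromosomes. OsbHLH002 is a basic helix-loop-helix protein. Its sites were mapped by chromatin immunoprecipitation and sequencing (ChIP-seq) in transgenic rice plants of the line Osbhlh002-1 gOsbHLH002-3FLAG, whose name joins the mutant Osbhlh002-1 with a genomic OsbHLH002 copy carrying a FLAG tag. The data were 1 library pulled down through the FLAG tag (the IP) and 1 input library of the same line, so both carry the mutant allele and the tagged copy. The labels give neither the tissue, the age nor the number of transgenic lines, and no untagged plants were analysed here. With 1 IP there was no replicate, so the values describe this library and not the spread between plants.

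F-box proteins are the interchangeable part of the SCF ubiquitin ligase. The F-box, a short domain, binds the adaptor SKP1, SKP1 binds the scaffold cullin, and cullin carries a RING-box protein that brings in the ubiquitin-conjugating enzyme. The rest of the F-box protein picks the target to be marked with ubiquitin, often through leucine-rich repeats (LRR), kelch repeats, WD40 repeats or another protein-binding fold. In plants this is a very large gene family, and in Arabidopsis the receptors for auxin and jasmonate are F-box proteins with leucine-rich repeats.

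The median peak of the F-box genes had the fold of the median peak of the list, and high folds made up a smaller share. The fold enrichment, which is the IP signal over the local background at the summit as the peak caller gave it, had a median of 3.13 (quartiles 2.56 and 4.04), and the median over all 14709 genes was also 3.13. The fold was above that median in 100 of 211 members (47.4%), against 48.99% of the list. Of the members, 20 had a fold of 5 or more, which is 9.48% (95% exact binomial interval 5.89 to 14.3%), where the list had 14.0%. A fold of 8 or more was reached by 2 members (0.948%, interval 0.115 to 3.38%), against 2.70% of the list. The list's share lay inside the interval in both cases, the interval covers the counting of genes only, and the difference was not tested. A false discovery rate (q) of 0.05 or less was reached by 190 members (90.0%), and by 90.1% of the list. A q of 0.01 or less was reached by 153 members (72.5%), against 77.3% of the list. The 21 members above 0.05 had weaker peaks, with q up to 0.285.

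**Figure D1:**
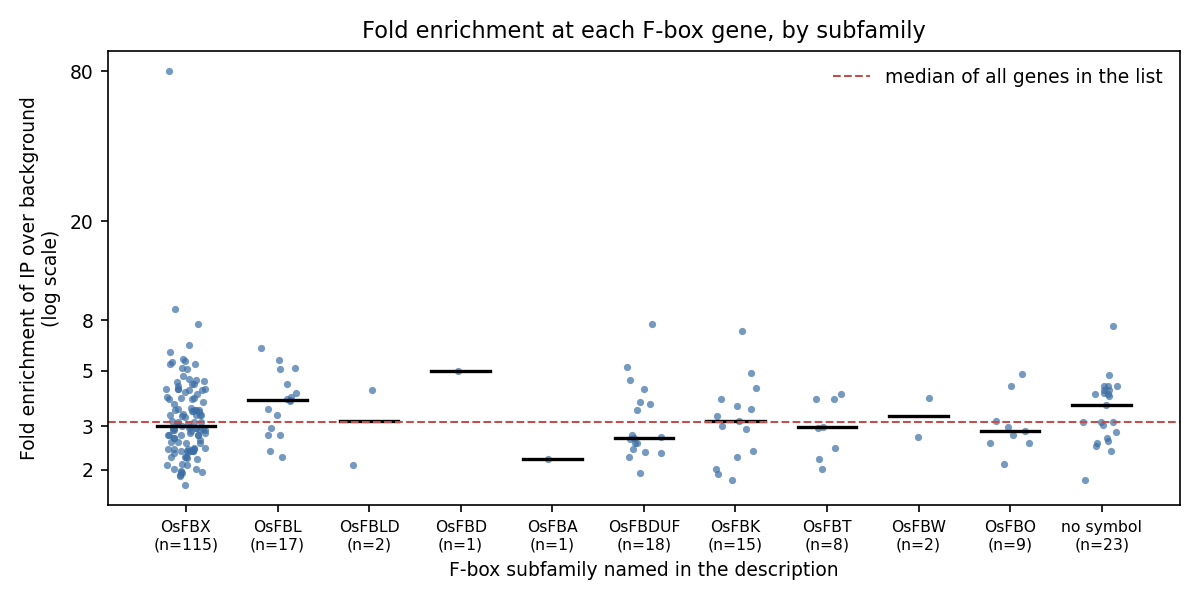
Fold enrichment (vertical axis, log scale) of each of the 211 F-box genes, 1 point per gene, grouped by the subfamily in the description. Black bars are medians and the dashed line is the median of all genes in the list, 3.13. All points but 1 lie between 1.74 and 8.82, and the exception is OsFBX5 at 79.97.

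The numbers behind these folds are small. The fold and the p-value of a peak together fix the number of IP fragments at its summit and the local background, which is the larger of the genome-wide and the local input level at the scale of the IP. The members had a median of 19 IP fragments, from 10 to 434, and a median background of 4.83 fragments, from 4.44 to 9.91. Over the list the medians were 20 and 5.19. The background was at its genome-wide floor of 4.44 fragments in 72 members (34.1%, interval 27.8 to 40.9%), against 25.9% of the list, so at these genes the input did not rise above its genome-wide level. Peaks at F-box genes were 229 to 3766 bp wide, with a median of 408 bp against 450 bp over the list, and 14 members (6.64%) had a peak of at least 1000 bp, against 11.3% of the list.

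**Figure D2:**
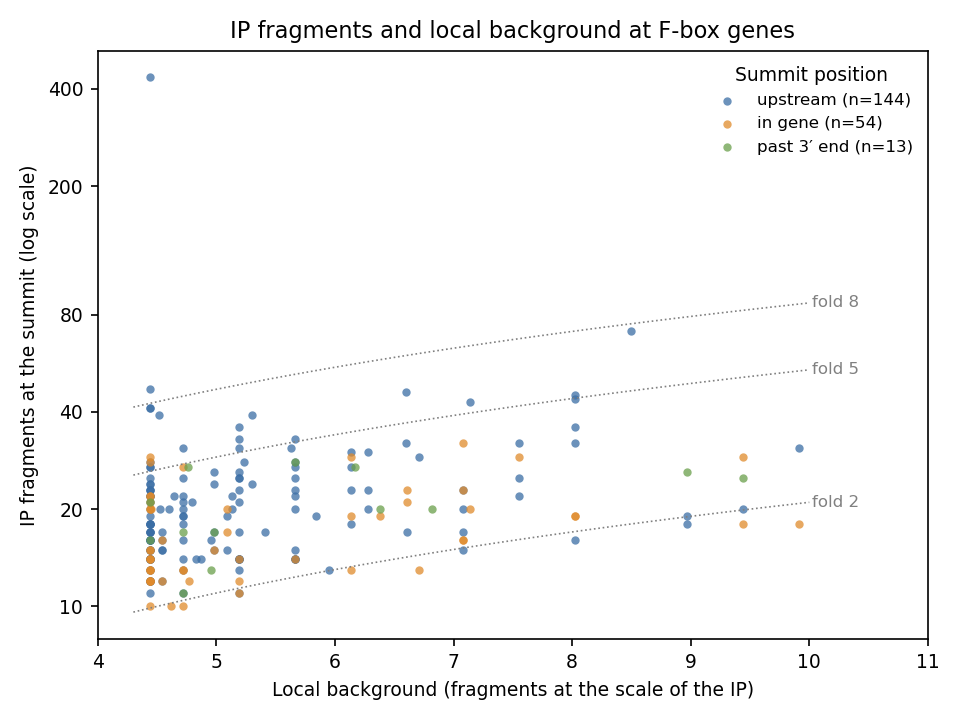
IP fragments at the summit (vertical axis, log scale) against local background (horizontal axis, fragments at the scale of the IP) for the 211 F-box genes. Colours give the place of the summit, and dotted lines mark folds of 2, 5 and 8. Most points lie between folds of 2 and 5, and the point at 434 IP fragments is OsFBX5.

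OsFBX genes have an F-box and no other domain named in the description. They were the most numerous group, with 115 of the 211 members, and had a median fold of 3.01 (order-statistic 95% interval 2.89 to 3.31). Of these, 52 were above the median of the list, and 12 (10.4%, interval 5.51 to 17.5%) had a fold of 5 or more, against 14.0% of the list. OsFBX5 (LOC_Os01g17390, chromosome 1, 10003950 to 10007768, plus strand) stood apart from every other member. Its peak ran from 10001696 to 10005461, was 3766 bp wide and covered the gene start. The summit, 1543 bp upstream, held 434 IP fragments over a background of 4.44, which gave a fold of 79.97 (95% interval 72.6 to 87.8 from the exact Poisson interval of the IP fragments, with the background held fixed). The −log10 q was 676. This was the only member of 12-fold or more, a limit that 0.965% of the list passed. Without OsFBX5 the median of the OsFBX genes was 2.99.

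The next OsFBX genes were far lower. OsFBX453 (LOC_Os12g34290, chromosome 12) had 47 IP fragments over 4.44, a fold of 8.82 (6.53 to 11.7), and its summit was 333 bp upstream. OsFBX389 (LOC_Os10g35920, chromosome 10) had 41 over 4.44, a fold of 7.72 (5.59 to 10.4), but the summit lay 2567 bp upstream, outside the window of 2 kb that the edge of its 1195 bp peak reached. OsFBX148 (LOC_Os04g48270) had 39 over 5.30, a fold of 6.35 (4.56 to 8.62), 1409 bp upstream. These intervals overlap one another, so their order is not settled by the counts. OsFBX382 (LOC_Os10g17940) had a narrow peak of 322 bp with 36 fragments over 5.19, a fold of 5.98, 230 bp upstream. OsFBX210 (LOC_Os07g02930) had 31 over 4.72, a fold of 5.59, 1264 bp upstream. The same summit lay 111 bp upstream of another gene, LOC_Os07g02940, which was thus the nearer. OsFBX81 (LOC_Os03g12200) had 28 over 4.44, a fold of 5.33, with the summit 100 bp inside the gene. At the other end, OsFBX258 (LOC_Os07g42590) had the lowest fold of all members, 1.74 (1.07 to 2.70), from 18 fragments over the highest background among them, 9.91.

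The LRR subfamily, OsFBL, had the highest median among the numbered subfamilies of more than 2 genes. Its 17 genes had a median fold of 3.80 (2.94 to 4.41), and 12 of them were above the median of the list. All 17 had a q of 0.05 or less (interval 80.5 to 100%, against 90.1% of the list), and 4 (23.5%, interval 6.81 to 49.9%) had a fold of 5 or more, against 14.0% of the list. The peak was also on another gene in 10 of the 17 (58.8%, interval 32.9 to 81.6%), against 29.6% of the list, so these peaks cannot be assigned to the OsFBL gene alone. OsFBL7 (LOC_Os02g10700, chromosome 2, 5628039 to 5631315, minus strand) led, with 46 IP fragments over 6.60 and a fold of 6.18 (4.56 to 8.20). Its peak, from 5631189 to 5631659, had its highest point 106 bp upstream. OsFBL33 (LOC_Os07g02910) had 29 fragments over 4.44, a fold of 5.52 (3.75 to 7.84), with the summit 38 bp inside the gene. OsFBL8 (LOC_Os02g21260) and OsFBL10 (LOC_Os03g04270), named after their values were seen, had folds of 5.15 and 5.10 with summits 8 bp and 78 bp upstream. The peak of OsFBL10 rested on 45 fragments over a background of 8.02, and that of OsFBL8 on 27 over 4.44, so near-equal folds had different counts behind them. Summits lay within 250 bp of the start in 10 of the 17 OsFBL genes (58.8%, interval 32.9 to 81.6%), where the list had 35.8%. The lowest of the subfamily was OsFBL50 (LOC_Os08g35930), also named after its value was seen, with a fold of 2.25 and the summit 2 bp upstream.

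Other members with leucine-rich repeats were 7 genes without a subfamily symbol and the OsFBLD genes, which add an FBD domain. The 7 genes had a median fold of 4.04 and ranged from 2.62 to 7.58. LOC_Os03g42740, described as an F-box/LRR-repeat protein 16, was the strongest, with 71 IP fragments over 8.50, a fold of 7.58 (5.95 to 9.54). These were the most fragments of any member after OsFBX5. Its summit lay 1995 bp upstream, between this gene and the divergent gene LOC_Os03g42730. That neighbour shares the peak and was the nearer gene, with its start 1020 bp from the summit. OsFBLD1 (LOC_Os02g06520) had 27 over 5.66, a fold of 4.20, 139 bp upstream, and OsFBLD6 (LOC_Os07g18560) had 12 over 5.19, a fold of 2.10 at a −log10 q of 0.948. Over all 26 members with leucine-rich repeats the median was 3.83 (3.13 to 4.20) and 18 were above the median of the list. The groups were compared after their values were known, and no test was made between them.

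Kelch and WD40 repeats bind proteins, and the tubby fold binds membrane lipids. In the 15 OsFBK (kelch) genes the median fold was 3.15 (2.25 to 3.86) and 8 were above the median of the list. OsFBK10 (LOC_Os02g51350) had 39 IP fragments over 4.51, a fold of 7.26 (5.21 to 9.85), with a peak of 1574 bp and the summit 848 bp upstream. OsFBK9 (LOC_Os02g36520) had 27 over 4.72, a fold of 4.90, 45 bp inside the gene. OsFBK19 (LOC_Os07g47650) was among the 3 lowest members, with 18 over 9.44 and a fold of 1.82. The 8 OsFBT (tubby) genes had a median of 2.96 and a narrow range, from 2.01 to 4.02. OsFBT11 (LOC_Os07g47110) had 22 fragments over 4.72, a fold of 4.02, and OsFBT7 (LOC_Os05g36190) had 20 over 4.44, a fold of 3.86. Summits lay inside the gene in 6 of the 8 OsFBT genes (75%, interval 34.9 to 96.8%), against 27.1% of the list. The pair of OsFBW (WD40) genes had folds of 3.88 (OsFBW1, LOC_Os04g52870, 223 bp upstream) and 2.71 (OsFBW2, LOC_Os11g07970, 7 bp inside the gene).

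The OsFBDUF genes, which carry a domain of unknown function, had the lowest median among subfamilies of more than 2 genes. Their 18 genes had a median fold of 2.69 (2.42 to 3.75), and 7 were above the median of the list. The strongest was nonetheless among the top members: OsFBDUF13 (LOC_Os02g44990, chromosome 2, 27248697 to 27251470) had 41 IP fragments over 4.44, a fold of 7.72 (5.59 to 10.4), with a peak of 1937 bp across the start and the summit 533 bp upstream. OsFBDUF57 (LOC_Os11g38130) had 31 over 5.19, a fold of 5.17, 148 bp upstream. The intervals of the subfamily medians given here overlap one another. Among the 9 OsFBO genes, with another domain not named, the median was 2.87. OsFBO3 (LOC_Os04g31610) reached a fold of 4.86, its summit being 1922 bp downstream, past the 3′ end, and OsFBO17 (LOC_Os04g40030) a fold of 4.35, 111 bp upstream. OsFBD8 (LOC_Os02g46690), the only OsFBD gene in the list, had 44 fragments over 8.02, a fold of 4.99 (3.65 to 6.66), 360 bp upstream. OsFBA3 (LOC_Os09g27570), the only OsFBA gene, had 19 over the same background, a fold of 2.22 (1.38 to 3.40), 10 bp inside the gene.

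The 23 members without a subfamily symbol had a median fold of 3.66 (2.84 to 4.20) and a median of 24 IP fragments, and 12 were above the median of the list. LOC_Os04g37590, described as F-box protein FBW2, a name that in Arabidopsis belongs to an F-box protein acting on ARGONAUTE1, was among the 3 lowest members, with 13 fragments over 6.71 and a fold of 1.82 (1.03 to 3.01). Its −log10 q was 0.550. Some genes outside the choice of words were looked for after the values were seen. Their descriptions name no F-box, and whether they encode F-box proteins was not checked. LOC_Os03g15880, described as coronatine-insensitive, the name of the jasmonate receptor in Arabidopsis, had 26 fragments and a fold of 3.34, 934 bp upstream. Of 4 genes described as PHLOEM 2-LIKE, LOC_Os01g06500 and LOC_Os03g56000 were the strongest, with folds of 4.55 and 4.21.

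Not every numbered F-box gene had an entry. The OsFBX symbols are numbered along the genome, since each of the 114 steps from one listed number to the next also moved forward along the chromosomes. In the OsFBO group 7 of 8 steps did so. The highest OsFBX number seen was 463, so the 115 listed genes make up 24.8% (interval 20.97 to 29.0%) of the numbers up to it. The same share was 30.4% (18.8 to 44.1%) for OsFBL, with 17 of 56, and 30.5% (19.2 to 43.9%) for OsFBDUF, with 18 of 59. It was 62.5% (40.6 to 81.2%) for OsFBK, with 15 of 24, 57.1% (28.9 to 82.3%) for OsFBT, with 8 of 14, and 47.4% (24.4 to 71.1%) for OsFBO, with 9 of 19. The last number seen is a lower limit of a subfamily's size and was set by the listed genes themselves, while the intervals take it as a fixed total, so the shares were not compared between subfamilies. Further, a gene without an entry may have a peak that is not in the list, and the same share over all rice genes was not analysed here.

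**Figure D3:**
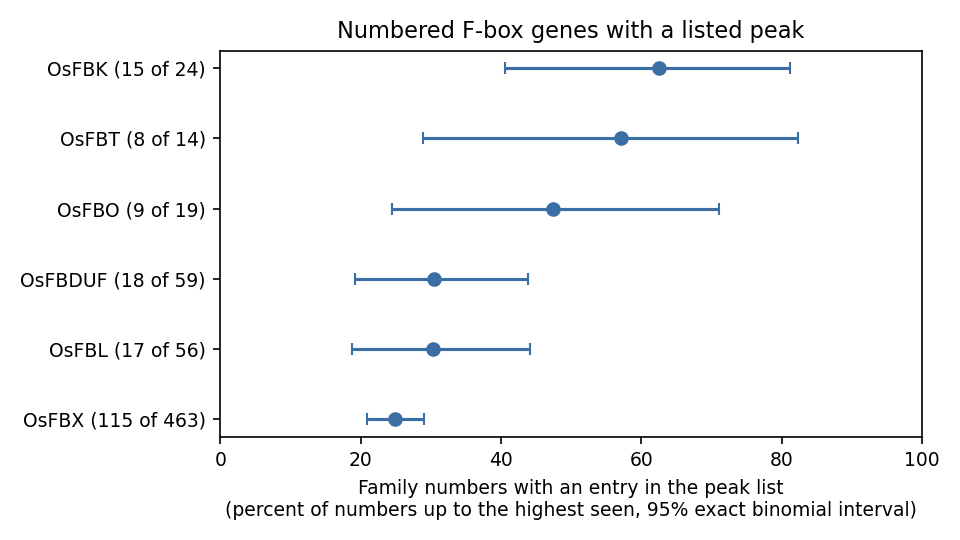
Share of family numbers, up to the highest number seen, that had an entry in the peak list (horizontal axis, percent), for the 6 numbered subfamilies with at least 8 entries. Points are shares and bars are 95% exact binomial intervals. The subfamilies are drawn in order of share, from OsFBX at 24.8% to OsFBK at 62.5%. The totals are lower limits set by the listed genes, so this order is not read as a comparison between subfamilies.

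Summits at F-box genes lay mostly upstream of the start. They were upstream in 144 members (68.2%, interval 61.5 to 74.5%), inside the gene in 54 (25.6%) and past the 3′ end in 13 (6.16%), against 63.2%, 27.1% and 9.77% of the list. Within 250 bp of the start, on either side, lay 78 summits (37.0%, interval 30.4 to 43.9%), against 35.8% of the list, and 50 of these were upstream (23.7% of members, against 21.4%). Over 2 kb from the start lay 9 summits (4.27%), against 7.60% of the list. The profile along the window was thus close to that of the list. Peaks with an upstream summit had a higher median fold than those with a summit inside the gene, as over the list. The median fold was 3.34 upstream, 2.63 inside the gene and 3.01 past the 3′ end. The list had 3.31, 2.76 and 3.22. All of the 10 members of highest fold had the summit upstream, as did 3 of the 10 of lowest fold. These counts were not made over the list, so they are not read as a trait of F-box genes. Among OsFBX genes 89 of 115 summits (77.4%, interval 68.7 to 84.7%) were upstream, and among OsFBK genes 7 of 15 (46.7%, 21.3 to 73.4%).

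**Figure D4:**
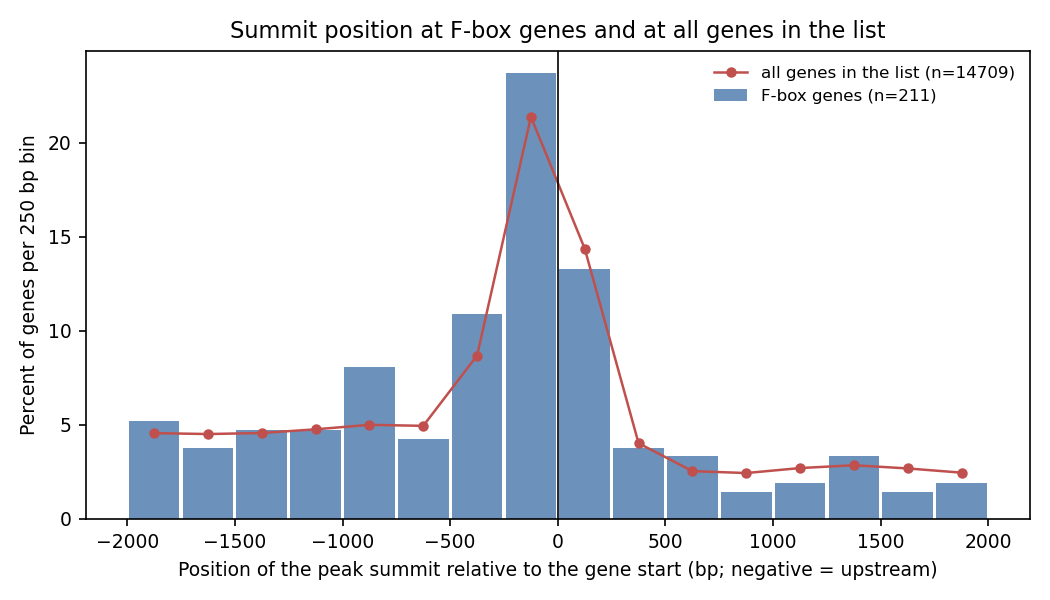
Percent of genes (vertical axis) per 250 bp bin of summit position relative to the gene start (horizontal axis, negative values upstream), for the 211 F-box genes (bars) and all 14709 genes of the list (line). The bin just upstream of the start is the highest in both, at 23.7% and 21.4%. Summits over 2 kb from the start, 9 among the members, are outside the axis but count in the percentages.

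A peak was often not the property of the F-box gene alone. The peak was also on another gene in 63 members (29.9%), against 29.6% of the list, and in 27 of the 63 the F-box gene was the nearest to the summit. In 45 of the 63 (71.4%) the other gene was transcribed away from the F-box gene on the opposite strand, against 65.4% of such genes over the list, and in 33 the summit lay between both starts. The counts of 27 and 33 were not made over the list, so they are not a trait of F-box genes. Some neighbours encode transcription factors by description, and the following were picked out after the values were seen. The peak of OsFBX276 (LOC_Os08g09910), with a fold of 3.49, had its summit 1239 bp from that gene and 53 bp from the start of LOC_Os08g09900, described as WRKY118. The peak of OsFBX173 (LOC_Os05g46320), with a fold of 2.60, lay 1788 bp from that gene and 34 bp from the start of a MYB family gene, LOC_Os05g46330. In both cases the F-box gene was the more distant. For OsFBX140 (LOC_Os04g39080), with a fold of 3.75, the summit lay 11 bp upstream of the F-box gene and 658 bp from LOC_Os04g39090, a SAM-domain gene.

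Another member started within 20 kb in 25 of the 211 genes (11.8%, interval 7.82 to 17%), in 12 groups of at most 3 genes. The same count was 16 of 124 (12.9%) for genes of C3HC4 RING-type zinc fingers and 13 of 50 (26%) for BTB/MATH genes, 2 other families that choose targets for ubiquitin. The highest and the lowest fold differed by over 1.5 times in 2 of the 12 groups, which are given first. OsFBX453, the second strongest member, starts 4892 bp from OsFBX454 (LOC_Os12g34300), which had 16 IP fragments over 4.54 and a fold of 3.07. The exact Poisson intervals of their fragment counts, 34.5 to 62.5 and 9.15 to 26.0, do not overlap. OsFBX80 (LOC_Os03g12190) and OsFBX81, 2607 bp apart, had folds of 2.63 and 5.33, and the intervals of their 15 and 28 fragments, 8.40 to 24.7 and 18.6 to 40.5, overlap. OsFBL33 and OsFBX210, 5544 bp apart on chromosome 7, had folds of 5.52 and 5.59, and both shared their peaks with genes for DUF538 proteins, LOC_Os07g02900 and LOC_Os07g02920 for OsFBL33 and LOC_Os07g02940 for OsFBX210.

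Members shared a single peak with each other in 2 cases, so these 4 genes hold 2 measurements. OsFBL53 (LOC_Os11g09580) and OsFBX404 (LOC_Os11g09590) shared a peak on chromosome 11 from 5127434 to 5127670, with 14 IP fragments over 4.44, a fold of 2.76 (1.59 to 4.50) and its summit 141 bp upstream of OsFBL53 and 1706 bp upstream of OsFBX404. OsFBX110 (LOC_Os03g56440) and OsFBX111 (LOC_Os03g56450) shared one on chromosome 3 from 32169004 to 32169243, with 11 over 4.72, a fold of 2.10 (1.13 to 3.62) at a −log10 q of 0.865. Both are narrow peaks that rest on few fragments.

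The list gives each gene 1 peak, and for some members another listed peak reached into the same window. This was so for 9 of the 211 members, and in 6 the other peak was the stronger. The same counts over the list were not made, so whether this is common there is not known. The largest difference was at OsFBX310 (LOC_Os09g12150, chromosome 9, 6873236 to 6874621, plus strand). Its own entry was a peak of 22 IP fragments, 1204 bp upstream, with a fold of 4.23. A peak of another gene, from 6873007 to 6881249, ran over the whole of OsFBX310 with a fold of 60.5 and its summit 3434 bp downstream of the start, past the end of the gene and outside the window of 2000 bp, so that fold is not a value of OsFBX310. In the other 5 genes the stronger peak had a fold of 2.48 to 5.33. The highest of these, at OsFBX80, is the entry of OsFBX81. Its summit lay 2707 bp downstream of the OsFBX80 start, also outside the window. As the entry of another gene, that fold was not counted for OsFBX80 either.

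By chromosome, F-box genes made up from 0.728% of listed genes on chromosome 6 (8 of 1099) to 2.08% on chromosome 11 (14 of 674), against 1.43% of the list. How many F-box genes each chromosome carries in all was not known, so these shares were not read as a difference in binding. Chromosome 3 held the most, 30. The median fold of the members ran from 2.44 on chromosome 8 (12 genes, where all listed genes had 3.08) to 3.98 on chromosome 4 (20 genes, against 3.22).

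The partners of F-box proteins in the ligase had mostly modest peaks. The SKP1 list had 9 genes with a peak and a median fold of 2.74, from 2.02 to 4.55. The strongest was LOC_Os07g43180, an SKP1-like gene, with 25 IP fragments over 4.72, 189 bp upstream. Next were LOC_Os01g43540, with a fold of 4.32, which is described as a suppressor of an SKP1 allele and so is not an SKP1 gene itself, LOC_Os07g22680 with 3.75 and LOC_Os06g02360 with 2.75. A run of 4 SKP1 family genes spanned 23236 bp on chromosome 7, and their folds went from 2.11 to 4.55. The only gene of the list described as a cullin, LOC_Os05g05700, had 21 fragments over 9.44, a fold of 2.11, 31 bp inside the gene. Its description does not say which class of cullin it is. Both genes found for the RING-box part are described as anaphase-promoting complex subunit 11, the RING protein of another cullin-type ligase, and had folds of 2.95 (LOC_Os02g47870) and 2.58 (LOC_Os03g19059). The COP9 signalosome, which removes the NEDD8 modifier from cullins, had 1 gene, LOC_Os08g39070, with a fold of 2.96, and 0 genes were described as NEDD8.

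Ubiquitin-conjugating enzymes had stronger leaders. Their 27 genes had a median fold of 3.36, and LOC_Os06g30970 had 51 IP fragments over 4.72, a fold of 9.09, 153 bp upstream. The 124 C3HC4 RING-type genes had a median of 3.27 (3.02 to 3.63). A fold of 5 or more was reached by 20 of them (16.1%, interval 10.1 to 23.8%), against 14.0% of the list. The strongest RING-type gene, LOC_Os02g45780, reached 9.36. The 50 BTB/MATH genes, adaptors of cullin 3 ligases, had a median of 3.10 (2.76 to 3.45), led by LOC_Os10g29495 with a fold of 141 and 766 IP fragments. A fold of 5 or more was reached by 4 of them (8.0%, interval 2.22 to 19.2%). That share, like the one of the F-box genes, was below the 14.0% of the list. The interval of the F-box median, 2.93 to 3.31, overlaps the median intervals of both families. Of 16 U-box genes the strongest, LOC_Os06g13870, had a fold of 11.5, and of 6 kelch genes without an F-box LOC_Os04g40740 had 5.15. That kelch gene shares its peak with the F-box gene OsFBX143 (LOC_Os04g40760), and the summit lay 182 bp from the kelch gene and 1989 bp from OsFBX143. No gene was found for tubby without an F-box.

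**Figure D5:**
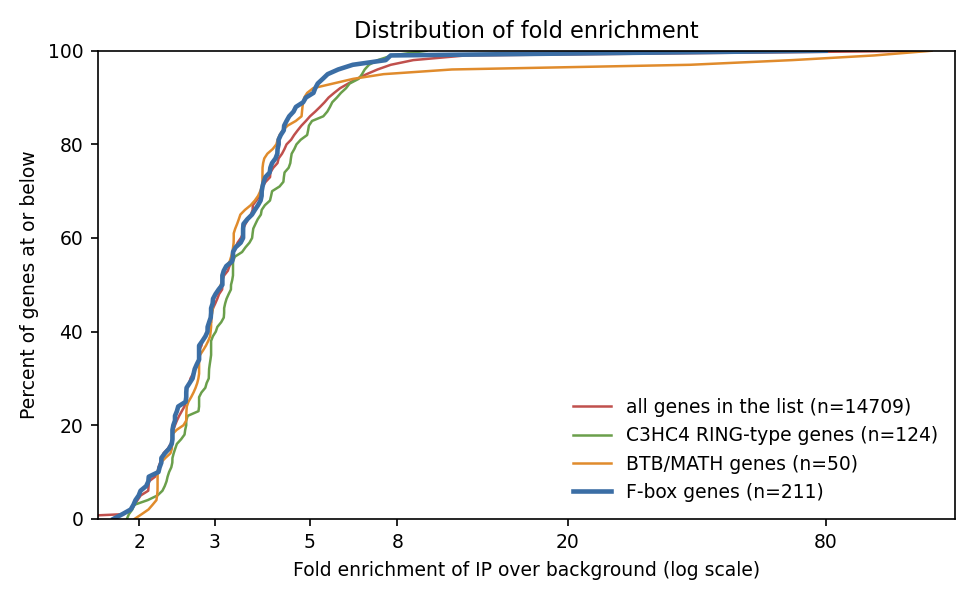
Percent of genes (vertical axis) at or below each fold enrichment (horizontal axis, log scale) for F-box genes, C3HC4 RING-type genes, BTB/MATH genes and all genes of the list. The F-box curve runs with the list up to its median of 3.13 and lies above it near a fold of 5, where 9.48% of F-box genes and 14.0% of the list remain to the right.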

How the data were processed

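Chromatin was fixed with 1% formaldehyde for 15 min and sonicated to 300 to 500 bp, per the labels' protocols. The submitters' processing notes name MACS2 2.2.7.1, Bowtie2 2.4.2, Picard and SAMtools. No source used here gives the build, the annotation release or the threshold of calling. The authors deposited 1 peak list of the IP, joined to genes whose window of 2000 bp either side of the start overlaps a peak. Its fold enrichment is a ratio, its p-value and q-value are given as −log10 and its score is a form of the p-value, per the file headers. These are the authors' own values. Coordinates are as deposited, counted from 1. Depth is known only through the fragments at summits.

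IP fragments and background were solved from the fold, (pileup + 1) / (background + 1), and the Poisson p-value, with a tolerance on −log10 p of 0.0001 times its value plus 0.0002. All 211 members had 1 whole-number solution, as did 12485 of 12487 peaks. On peaks simulated with these same formulas, the step recovered 2000 of 2000 peaks. That checks the solving only, and cannot show that the peak caller used these formulas. Poisson intervals cover counting error only, with 1 IP and the background held fixed. They do not cover extra copies of a fragment made by amplification. Binomial and median intervals cover the number of genes only. Genes are not replicates, so no test was made between groups of genes.

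Members and lists were chosen with earlier results of these data known. The text names the 10 members of highest fold, the 2 highest of each subfamily, the 5 highest with a summit within 250 bp of the start, the 3 lowest, members sharing a peak with another member, up to 4 genes each of the SKP1, cullin and RING-box lists and the strongest of each other partner list. Other genes were named after their values were seen. The reference gene table, with 39387 entries, matched 0 members, so names come from the list alone and no sequence is shown. Python 3.11.15, scipy 1.17.1 and pandas 2.3.3 were used.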

Additional observations from a re-analysis of the deposited data

How the results depend on the processing

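Of 38 values recomputed in the same unit under other settings, 29 stayed within the interval of the value given, or within 1.5 times of a count, and 9 moved. The median fold of the members went from 3.13 to 3.55 at a q of 0.01 or less (list 3.49) and to 3.32 for summits within 2 kb upstream (list 3.31), and the median of IP fragments, which is in another unit and has no interval to be set against, was 19 (list 20). The share of members with a fold of 5 or more, 9.48%, became 26.5% at a limit of 4 (list 27.6%) and 0.948% at a limit of 8 (list 2.70%); it stayed below the share of the list in each of the other settings tried, from 9.05% without OsFBX5, a setting added after the data were seen, to 13.1% at a q of 0.01 or less (list 18.1%). The share of summits within 250 bp of the start was 44.6% for peaks on 1 gene (list 39.0%) and 51.7% with a window of 500 bp (list 48.4%). With each distinct peak counted once it was 37.3% of 209 member peaks (list 41.2% of 12487 peaks), and gene by gene it was 37.0% (list 35.8%). The shares by peak are not counted alike, since a member stayed in when its peak was also on a gene outside the family. Their order was therefore not read as a result. The share upstream was 74.5% at a q of 0.01 or less (list 66.9%). A q of 0.01 or less was reached by 72.5% of members (list 77.3%). With a distance of 50 kb, 45 members had another member nearby, against 25 at 20 kb. The settings change which genes or limits are counted, and the cause of a shift beyond that was not tested. No paired analysis was possible because there was 1 IP and 1 input and no test was made. Depth limits the order of single members: at 19 IP fragments, the median, the fold of OsFBW2 (2.71) has a counting interval from 1.68 to 4.15.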
